A study of Homo sapiens with 4 samples.

Results

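The genes described here encode the insulin-like growth factor (IGF) binding proteins IGFBP2, IGFBP3, IGFBP4, IGFBP5, IGFBP6 and IGFBP7, the receptors IGF1R and IGF2R, and the RNA-binding proteins IGF2BP2 and IGF2BP3. They were chosen by their gene names in the deposited files, and all 10 were found among the 58735 genes listed. Earlier results of these data were known when the choice was made. IGF2BP2 and IGF2BP3 share a name with the binding proteins but are not of their kind: they bind the mRNA of IGF2 and other mRNAs inside the cell, not the growth factor. IGF2R is also the cation-independent mannose 6-phosphate receptor, which is built differently from IGF1R.

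RNA of 2 established human glioblastoma (GBM) cell lines, U251 and U87, was sequenced with and without treatment by brusatol (Bru), a plant-derived quassinoid that blocks protein synthesis and lowers NRF2. According to the study's text, Bru was dissolved in DMSO and was given at the IC50, and its cell assays used DMSO alone as control, whereas the labels call the untreated libraries Control only. Treatment lasted 48 h. There were 4 libraries, 1 per condition, so no difference below has a replicate check and no p-value is given. The intervals are exact 95% intervals that cover the counting error of the reads only.

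IGF1 and IGF2 are growth factors that promote survival and division. IGF1R, a tyrosine kinase of the cell surface, carries their signal to the PI3K-AKT and MAPK pathways, while IGF2R takes up IGF2 and sends it to the lysosome. The IGFBPs are secreted and hold the ligands in the surrounding fluid, and proteases that cut an IGFBP set the ligand free. IGFBP2 is known to be raised in malignant glioma, and IGFBP7 binds IGFs weakly compared with the others.

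The files held FPKM, a fragment count scaled to gene length and library size, and the fragments behind each value, called reads, could be recovered (between 17083896 and 21453561 per library). Of the 8 glial and glioma markers, 6 reached an FPKM of 1 in each U251 library and 4 in each U87 library (VIM, CD44 and SOX9 in both, with NES in Control and OLIG2 in Bru), with summed FPKM of 1154 and 895 in U251 Control and Bru and of 802 and 762 in U87 Control and Bru. S100B had reads in U251 Control only, and SOX2 was at 0 in U87 Control. Summed FPKM of the haematopoietic markers stayed between 0.0880 and 0.670 and that of the endothelial markers between 0.166 and 0.588. The epithelial list lay between 2.22 and 16.4. KRT18 had FPKM of 9.67 and 14.3 in U251 Control and Bru, KRT8 lay between 1.54 and 2.80, and CDH1 was at 0 in every library. The fibroblast list lay between 11.3 and 24.8. THY1 had FPKM of 17.5 and 10.8 in U251 Control and Bru. In U87 Control and Bru, COL1A1 had 21.1 and 9.31 and PDGFRB 2.74 and 1.66, while DCN was at 0 in every library. The part of these values in the results was not tested.

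IGFBP5 and IGFBP2 lie tail to tail on chromosome 2 with 7668 bases between them, IGFBP5 at chr2:216672105-216695525 on the minus strand and IGFBP2 at chr2:216632828-216664436 on the plus strand (GRCh38). The 250 bases before a RefSeq start of each gene are shown because both genes were over 2-fold lower in the Bru library of U251. Those of IGFBP4, another member of the family, are shown because the interval of its ratio included 0 in both lines. None of these windows overlaps an annotated exon. The motif TATAAA, the motif TTTAAA and the motif GGGCGG are in capitals. They were searched on both strands, and no matches overlap (the last motif reads CCGCCC where it lies on the other strand). The sequences are from RefSeq, GRCh38.p14, printed 5′ to 3′ on the strand of the gene.
IGFBP5, minus strand, chr2:216695550-216695799: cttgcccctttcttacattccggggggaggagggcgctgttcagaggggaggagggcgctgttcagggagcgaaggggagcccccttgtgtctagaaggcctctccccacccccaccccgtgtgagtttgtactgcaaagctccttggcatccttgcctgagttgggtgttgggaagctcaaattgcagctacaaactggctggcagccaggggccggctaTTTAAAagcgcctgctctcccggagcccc
IGFBP2, plus strand, chr2:216632578-216632827: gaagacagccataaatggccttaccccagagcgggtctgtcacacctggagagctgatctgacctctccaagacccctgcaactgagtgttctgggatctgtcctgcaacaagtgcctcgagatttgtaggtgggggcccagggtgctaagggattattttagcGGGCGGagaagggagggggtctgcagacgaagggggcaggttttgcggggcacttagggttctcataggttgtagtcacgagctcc
IGFBP4, plus strand, chr17:40443200-40443449: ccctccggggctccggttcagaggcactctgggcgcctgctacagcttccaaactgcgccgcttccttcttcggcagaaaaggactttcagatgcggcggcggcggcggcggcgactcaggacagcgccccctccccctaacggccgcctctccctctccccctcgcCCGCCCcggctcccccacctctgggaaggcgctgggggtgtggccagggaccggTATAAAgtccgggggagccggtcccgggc

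The IGFBP5 window holds TTTAAA 29 bases before the start, and the IGFBP4 window holds TATAAA at the same distance and GGGCGG on the other strand. The IGFBP2 window holds GGGCGG alone. Among 35116 promoters of the same length in the table, 11.3% hold TTTAAA, 10.7% hold TATAAA and 42.6% hold GGGCGG. The windows shown have 8 CpG in IGFBP5, 7 in IGFBP2 and 24 in IGFBP4, where the median over all promoters is 11. RefSeq lists 3 starts for IGFBP2, and FPKM per gene cannot tell which was used. The windows before its other starts have 22 CpG (chr2:216633170-216633419, which overlaps an annotated exon) and 4 CpG (chr2:216659317-216659566). A promoter was found for 9 of the 10 genes, all but IGFBP7. These matches describe the letters of the window and no binding was measured.

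In U251, IGFBP5 was the gene of the group with the largest difference between the libraries. Its FPKM was 53.0 in untreated and 2.09 in Bru-treated U251 cells (7161 and 250 reads), and 0.0687 against 0.0178 in U87 cells (8 and 2 reads). It was well measured in U251 and close to the detection limit in both U87 libraries. In bulk RNA, fewer cells with the transcript and less of it per cell cannot be told apart, here and in what follows. The level in U251 Bru was 25.3-fold lower than in U251 Control, a log2 ratio of -4.60 on FPKM + 0.1 (-4.66 without the 0.1, interval -4.85 to -4.48). This was place 12 from the lowest among the 12949 genes whose FPKM averaged 1 or more over the 4 libraries. In U87 the log2 ratio without the 0.1 was -1.95 with an interval from -5.22 to 0.38, so that 8 and 2 reads were too few to tell the levels apart.

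IGFBP2 had an FPKM of 102 in untreated and 42.1 in Bru-treated U251 cells (10200 and 3723 reads), and 0.0232 against 0 in U87 cells (2 and 0 reads). It was 2.42-fold lower in U251 Bru than in U251 Control, with a log2 ratio of -1.27 (interval -1.33 to -1.22). No fold is given for U87, where both libraries were at or under 3 reads; for U87 Bru the floor of 3 reads that a count of 0 allows is an FPKM of 0.0362. In U251 Bru it still stood at percentile 92.4 of the 12949 genes by level.

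Within 500000 bases of this pair, 6 other genes had an average FPKM of 1 or more. Their log2 ratios in U251 lay between -0.17 and 0.84, and the highest was that of RPL37A, a ribosomal protein gene, with FPKM of 98.7 in Control and 176 in Bru. Of the genes at this level in the stretch, IGFBP2 and IGFBP5 were the only ones below a log2 ratio of -1 in U251. The neighbours were also read in both U87 libraries: XRCC5, which encodes the Ku80 subunit for repair of DNA breaks, had an FPKM of 85.6 and 91.7 in U251 Control and Bru and of 90.6 and 87.03 in U87 Control and Bru.

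IGFBP7 (chr4:57030773-57110385, minus strand), a secreted protein of the vessel wall and matrix, had an FPKM of 108 in untreated and 36.6 in Bru-treated U251 cells (4382 and 1310 reads), and 9.86 against 7.26 in U87 cells (344 and 244 reads). It was lower in Bru than in Control in both lines. The level was 2.96-fold lower in U251 (log2 ratio -1.56, interval -1.65 to -1.47) and 1.36-fold lower in U87 (log2 ratio -0.44, interval -0.68 to -0.20). Opposite-strand genes share 18.9% of its exonic bases, POLR2B among them, and strand-specific counting is not stated, so these reads cannot be told apart. POLR2B, a subunit of RNA polymerase II, had FPKM of 53.1, 55.5, 38.0 and 36.1 in U251 Control, U251 Bru, U87 Control and U87 Bru.

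IGFBP6 (chr12:53097436-53102345, plus strand) binds IGF2 in preference to IGF1. Its FPKM was 43.5 in untreated and 42.6 in Bru-treated U251 cells (1228 and 1062 reads), and 423.6 against 313 in U87 cells (10303 and 7336 reads). It was the highest of the 10 genes in both U87 libraries. In U87 the level was 1.35-fold lower in Bru (log2 ratio -0.44, interval -0.48 to -0.39). In U251 the ratio was -0.03 (interval -0.15 to 0.09), and it turned to 0.06 when the library size was taken from the total of reads, so no direction is given.

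IGFBP3 (chr7:45912245-45921874, minus strand) is the main carrier of IGFs in blood. Its FPKM was 0.522 in untreated and 0.862 in Bru-treated U251 cells (50 and 73 reads), and 2.64 against 2.98 in U87 cells (218 and 237 reads). Leaving aside IGFBP6, whose sign depends on the library size, it was the only gene of the group that was higher in U251 Bru, by 1.65-fold, with a log2 ratio of 0.63 on FPKM + 0.1 and of 0.72 without the 0.1 (interval 0.19 to 1.27). The U87 ratio of 0.17 had an interval from -0.10 to 0.45, which includes 0.

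IGFBP4 (chr17:40443461-40457731, plus strand), an IGFBP that the protease PAPPA cuts, had an FPKM of 3.36 in untreated and 2.87 in Bru-treated U251 cells (155 and 117 reads), and 1.33 against 1.38 in U87 cells (53 and 53 reads). The log2 ratio was -0.22 in U251 (interval -0.59 to 0.13) and 0.05 in U87 (interval -0.52 to 0.63). Both intervals include 0.

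**Figure D1:**
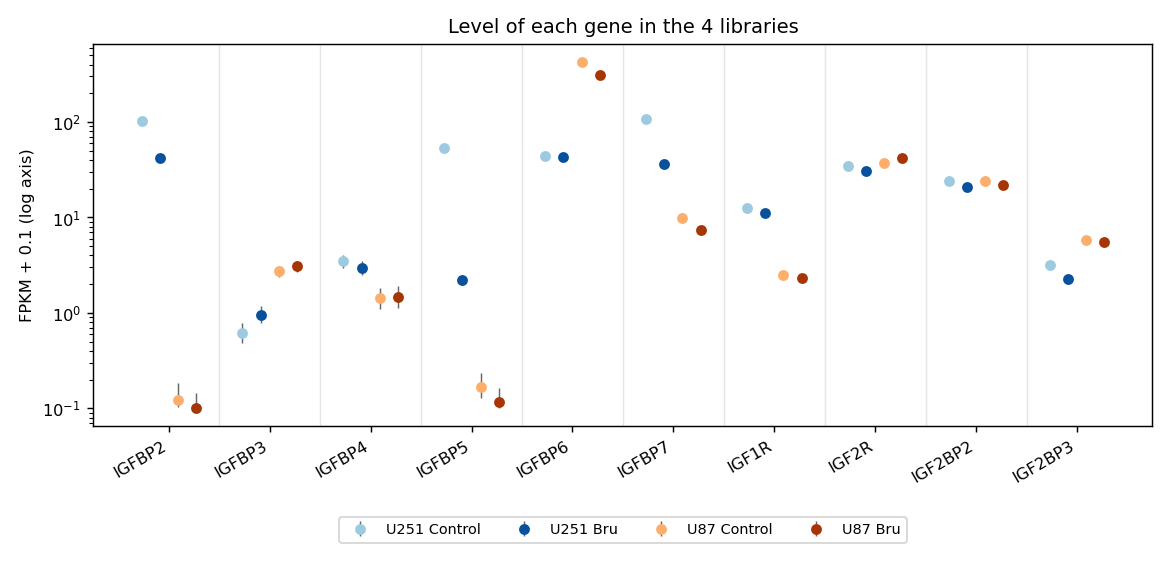
FPKM + 0.1 on a log axis for each of the 10 genes, with 1 point per library and grey lines for the exact 95% Poisson interval of its reads (many are shorter than the point). IGFBP2 and IGFBP5 stand at 102 and 53.0 in U251 Control and near the lower edge in both U87 libraries, while IGFBP6 stands highest in U87.

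Added up over the IGFBPs, FPKM came to 310.6 untreated and 127 with Bru for U251, and to 437.5 untreated and 325 with Bru for U87. The sum was 2.44-fold lower with Bru in U251 and 1.35-fold lower in U87. In U251 Control, IGFBP7 gave 34.8% of the sum, IGFBP2 32.8%, IGFBP5 17.1% and IGFBP6 14.0%. In U251 Bru, IGFBP6 gave 33.5%, IGFBP2 33.1%, IGFBP7 28.8% and IGFBP5 1.65%. The share of IGFBP6 was thus larger in Bru although its own FPKM was 43.5 and 42.6, since the sum was lower. In U87 the make-up was nearly the same in both libraries, with IGFBP6 at 96.8% in Control and 96.4% in Bru. These shares compare levels per gene length and hold for mRNA, not for the secreted proteins.

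**Figure D2:**
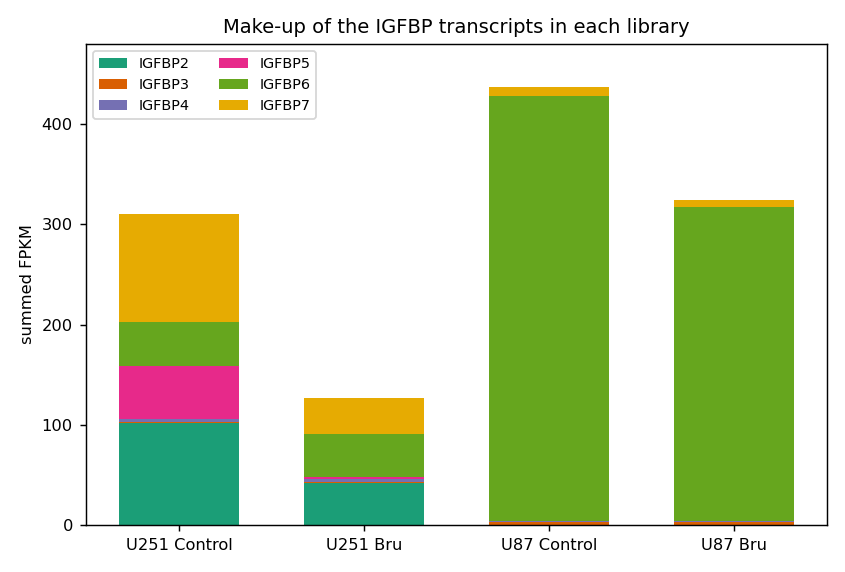
Summed FPKM of the 6 IGFBP genes in each library, with each bar split by gene. The U251 Bru bar reaches 127 against 310.6 in U251 Control and has almost no IGFBP5, and both U87 bars are almost wholly IGFBP6.

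The receptors differed less with Bru than IGFBP2, IGFBP5 and IGFBP7 did in U251. IGF1R (chr15:98648539-98964530, plus strand) had an FPKM of 12.6 in untreated and 10.9 in Bru-treated U251 cells (3686 and 2826 reads), and 2.43 against 2.24 in U87 cells (611 and 543 reads). Its log2 ratio was -0.20 in U251 (interval -0.28 to -0.13) and -0.11 in U87 (interval -0.29 to 0.05). The line made the larger difference, since the level in U87 Control was 5.20-fold lower than in U251 Control.

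IGF2R (chr6:159969099-160113507, plus strand) had an FPKM of 34.2 in untreated and 30.6 in Bru-treated U251 cells (12810 and 10108 reads), and 37.1 against 41.7 in U87 cells (11950 and 12944 reads). The ratios had opposite signs in the lines. The log2 ratio was -0.16 in U251 (interval -0.20 to -0.13) and 0.17 in U87 (interval 0.13 to 0.21). Both amount to 1.12-fold. With the total of reads as library size, the values were -0.08 in U251 and 0.21 in U87. IGF2R exceeded IGF1R 2.72-fold and 2.79-fold in Control and Bru of U251, and 15.3-fold and 18.6-fold in those of U87.

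IGF2BP2 (chr3:185643739-185825056, minus strand), which binds mRNAs and affects their stability and translation, had an FPKM of 23.7 in untreated and 20.9 in Bru-treated U251 cells (2356 and 1831 reads), and 24.1 against 21.5 in U87 cells (2061 and 1776 reads). Levels in the lines lay close together, and so did the ratios. The log2 ratio was -0.18 in U251 (interval -0.27 to -0.10) and -0.16 in U87 (interval -0.25 to -0.07). The difference of these ratios, 0.02 on the log2 scale, had an interval from -0.10 to 0.15.

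IGF2BP3 (chr7:23310209-23470467, minus strand), its paralog of embryonic tissue and tumours, had an FPKM of 3.05 in untreated and 2.14 in Bru-treated U251 cells (544 and 338 reads), and 5.75 against 5.41 in U87 cells (885 and 801 reads). It was 1.42-fold lower in U251 Bru (log2 ratio -0.49, interval -0.71 to -0.31), and in U87 the log2 ratio of -0.09 had an interval from -0.23 to 0.05. It shares 17.9% of its exonic bases with an opposite-strand gene, MALSU1, which had FPKM of 9.94 and 9.63 (U251, Control then Bru) and of 11.9 and 11.6 (U87, likewise). Of its 50-base stretches, 21.9% occur in another annotated gene, so its values are less certain than those of the IGFBPs other than IGFBP7. The other genes that overlap the span of one of the 10 had low levels, among them AL353625.1, within IGF2R, with an FPKM between 0.672 and 1.58 and at most 104 reads, and AC007563.2, on the strand opposite IGFBP5, had 0 reads in every library. IGF2BP1, the embryonic gene of the family, had 0 reads in both U251 libraries and 1 and 2 reads in U87 Control and Bru.

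Counted together, 9 of the 10 genes were lower and 1 was higher in U251 Bru than in U251 Control, where IGFBP6 turned its sign with another library size. Among all 12949 genes, a log2 ratio of 0 lay at place 6742 from the lowest in U251. A log2 ratio below -1 was found for IGFBP2, IGFBP5 and IGFBP7, 3 of 10 genes, where 5.44% of all 12949 genes were below -1, and none of the 10 was above 1, where 3.36% of all genes were (8.8% in either direction). Taking the library size from the total of reads moved the split of all genes past 2-fold from 435 higher and 705 lower to 551 higher and 576 lower, and left the same count of 3 among the 10. IGFBP5 reached the minimum of mean FPKM through U251 Control alone, the library where it is high. The genes were also chosen with earlier results of these data known, so the 3 of 10 are not read against the shares of all genes. The median log2 ratio was -0.21 over the 10 genes and -0.03 over all genes. The interval lay below 0 for 7 genes, above 0 for IGFBP3, and included 0 for IGFBP4 and IGFBP6. The share of all genes whose interval leaves out 0 was not computed, so these counts are not read as particular to the group.

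In U87, 6 genes were lower and 3 were higher in Bru, leaving out IGFBP2 with 3 reads or fewer in both libraries. Among all 12949 genes, a log2 ratio of 0 lay at place 7338 from the lowest in U87. None passed 2-fold in either direction, where 1.41% of all genes were below -1 and 1.92% above 1 (3.34% in all). IGFBP5, with an FPKM of 0.0687 in U87 Control, could not fall below -1 once the 0.1 was added, whatever its reads in Bru. Without the 0.1 its log2 ratio was -1.95 (interval -5.22 to 0.38). The median log2 ratio of these 9 genes was -0.11 against -0.04 over all genes. The interval lay below 0 for IGFBP6, IGFBP7 and IGF2BP2, above 0 for IGF2R, and included 0 for the other 6 genes, IGFBP2 among them. Here too the share over all genes was not computed.

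**Figure D3:**
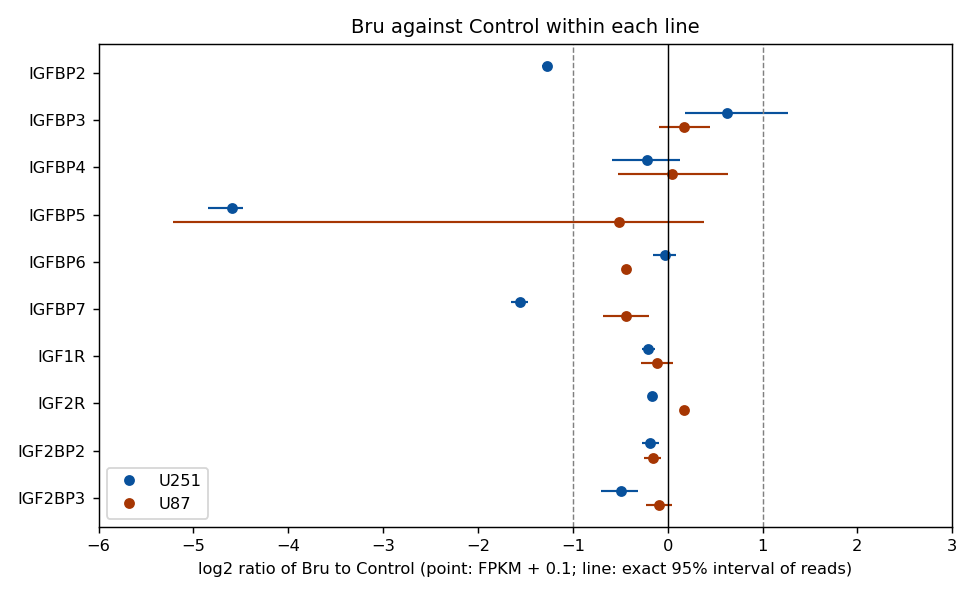
Log2 ratio of Bru to Control for each gene in U251 and U87, points from FPKM + 0.1 and lines for the exact 95% interval of the reads without the 0.1; dashed lines mark 2-fold and IGFBP2 is not drawn for U87. IGFBP5, IGFBP7 and IGFBP2 lie beyond the lower dashed line in U251, and no gene does in U87.

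**Figure D4:**
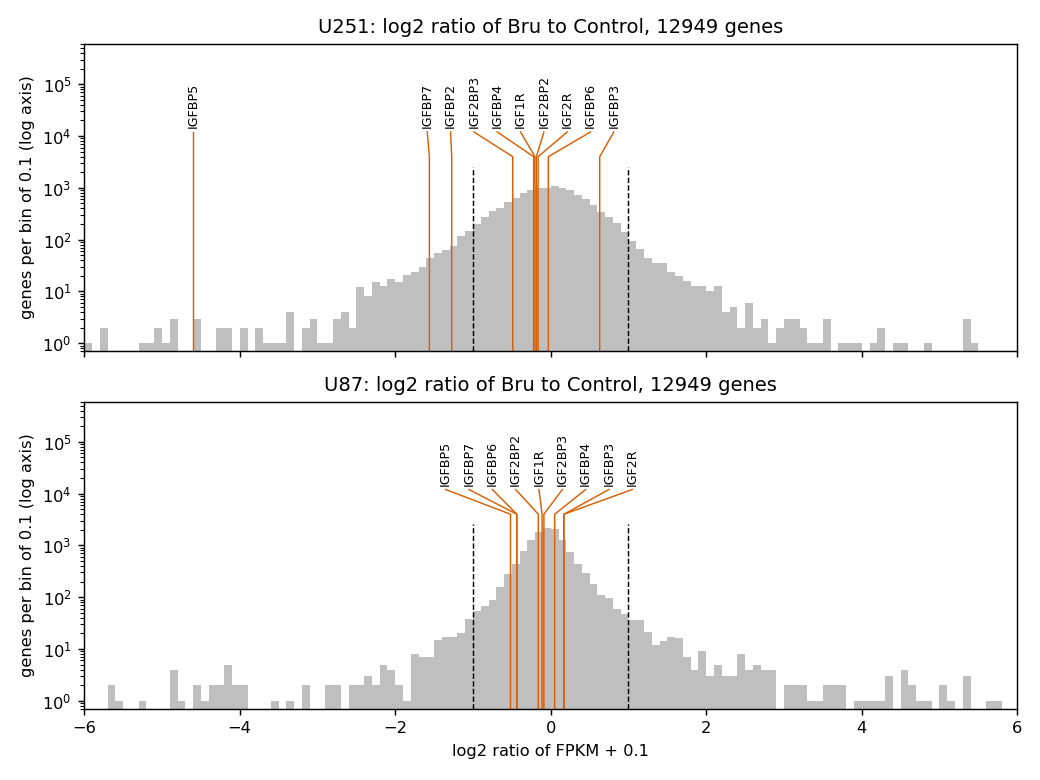
Distribution of the log2 ratio of Bru to Control over 12949 genes in U251 (top) and U87 (bottom), as genes per bin of 0.1 on a log axis, with values beyond 6 in either direction put into the end bins. Orange lines mark the genes of the IGF group: IGFBP5 is in the outer left tail in U251 at -4.60, and in U87 the 9 genes drawn lie within 2-fold.

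The ratio of Bru to Control was compared between the lines with the exact interval of the difference, U87 minus U251, on the log2 scale. For IGFBP7 it was 1.12 (interval 0.86 to 1.38), for IGF2R 0.33 (interval 0.28 to 0.38) and for IGF2BP3 0.40 (interval 0.17 to 0.66), so that their ratio was higher in U87 beyond counting error. For IGFBP6 it was -0.40 (interval -0.53 to -0.28), a lower ratio in U87. A difference above 1 was found for IGFBP5 and IGFBP7, 2 of 10 genes, where 5.11% of all genes were above 1, 3.37% below -1 and 8.49% past either. IGFBP5 passed the minimum of mean FPKM through U251 Control alone. With its low level in U87 Control and the 0.1 added, its difference was above 1 whatever its reads in U87 Bru. The count is thus not read against these shares. The difference of 4.08 for IGFBP5 rested on 8 and 2 reads in U87; without the 0.1 it was 2.72, and its interval from -0.57 to 5.05 included 0. The intervals of IGFBP3 (-1.17 to 0.06), IGFBP4 (-0.41 to 0.97), IGF1R (-0.10 to 0.27) and IGF2BP2 also included 0. For IGFBP2 the difference was 0.97 on FPKM + 0.1, but its interval had no lower limit and reached up to 3.74, so no direction is given. These differences compare 4 libraries and were not tested across replicates.

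The order of the levels also set the lines apart. In U251 Control it ran from IGFBP7 through IGFBP2, IGFBP5, IGFBP6, IGF2R, IGF2BP2, IGF1R, IGFBP4 and IGF2BP3 to IGFBP3, and only IGFBP4 and IGF2BP3 were neighbours with overlapping counting intervals. In U251 Bru, IGFBP6, IGFBP2 and IGFBP7 led and IGFBP5 came ninth. The neighbours that overlapped there were IGFBP6 with IGFBP2, IGFBP4 with IGF2BP3, and IGF2BP3 with IGFBP5. In U87 Control the order was IGFBP6, IGF2R, IGF2BP2, IGFBP7, IGF2BP3, IGFBP3, IGF1R, IGFBP4, IGFBP5 and IGFBP2, and U87 Bru kept it. IGFBP3 and IGF1R overlapped in U87 Control, and IGFBP5 and IGFBP2 did in both U87 libraries.

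Between the Control libraries, 7 of the 10 genes were past 2-fold, 5 lower and 2 higher in U87, where 16% of all genes were lower and 14.5% higher by as much (30.4% together). IGFBP2, IGFBP4 and IGFBP5 passed the minimum of mean FPKM through U251 alone and IGFBP3 through U87 alone. The filter thus favours a difference between the lines for these genes, and the count is not read against the shares of all genes. IGFBP2 was 4394-fold lower in U87 Control (log2 ratio without the 0.1 of -12.1, interval -15.1 to -10.2, from 2 reads) and IGFBP5 771-fold lower (log2 ratio without the 0.1 of -9.59, interval -10.8 to -8.61, from 8 reads). IGFBP7 was 10.97-fold, IGF1R 5.20-fold and IGFBP4 2.52-fold lower in U87. IGFBP6 was 9.74-fold and IGFBP3 5.06-fold higher in U87. IGF2BP3 was 1.89-fold higher, IGF2R 1.08-fold higher, and the interval of IGF2BP2 (-0.06 to 0.11) included 0. This comparison shares its Control libraries with the ratios of Bru to Control above.

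The ligands of the pathway were almost unread. IGF2, under both of its gene IDs, and INS had 0 reads in every library, and IGF1 had 1 read in U251 Control and 0 in the others. How reads that fall in more than 1 gene were counted is not given in the study's text. Its part in the 0 values of IGF2 was not tested. INSR, the insulin receptor, which can pair with IGF1R, had an FPKM of 2.25 untreated and 1.34 with Bru in U251, and of 1.996 untreated and 2.35 with Bru in U87. Its log2 ratio was -0.71 in U251 (interval -0.97 to -0.53) and 0.23 in U87 (interval 0.03 to 0.44). IGF1R exceeded INSR 5.59-fold in U251 Control and 8.15-fold in U251 Bru, while in U87 they were near each other, at 1.21-fold in Control and 0.951-fold in Bru. IGFBP1, which lies 18576 bases from IGFBP3 on chromosome 7, had 0 reads in both U251 libraries and FPKM of 1.21 (36 reads) in U87 Control and 0.626 (18 reads) in U87 Bru.

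Over 9 lists of other genes of the pathway, 50 of 72 genes reached that average FPKM of 1. In U251, 1 of the 50 was above and 5 were below 2-fold, beside 3.36% and 5.44% of all genes, with a median log2 ratio of -0.26. In U87 none of the 50 passed in either direction, beside 3.34% of all genes, with a median of -0.10. The corresponding medians over all genes were -0.03 and -0.04. Of the proteases that cut IGFBPs and their inhibitors, 7 of 9 reached that average. All 7 were lower in U251 Bru, where a log2 ratio of 0 lay at place 6742 of 12949 genes from the lowest. Their median log2 ratio was -0.85, and 3 were past 2-fold, beside 5.44% of all genes that were as much lower. The lists were chosen with earlier results of these data known, so these counts are not read as particular to the proteases. PAPPA, the protease of IGFBP4, had an FPKM of 1.47 untreated and 0.275 with Bru in U251, and of 5.59 untreated and 4.36 with Bru in U87, which gives log2 ratios of -2.07 (U251) and -0.35 (U87). STC1, a secreted inhibitor of PAPPA, went in the same direction, with FPKM of 48.8, 11.7, 34.5 and 20.8 in the same order and log2 ratios of -2.05 and -0.72. ADAM9, a membrane protease, had FPKM of 89.8, 40.2, 61.2 and 44.4 and log2 ratios of -1.16 and -0.46. In U87, 6 of the 7 were lower, where a log2 ratio of 0 lay at place 7338 from the lowest, and the median was -0.35.

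Of 12 proteins that carry an IGFBP-type domain at their start but are not IGFBPs, 6 reached that average, their median log2 ratio being -0.81 for U251 and -0.15 for U87. In U251, 1 was above and 1 below 2-fold, beside 3.36% and 5.44% of all genes. CTGF, a matrix protein, had FPKM of 480.5 untreated and 174.6 with Bru in U251, and of 35.6 untreated and 32.5 with Bru in U87, with log2 ratios of -1.46 and -0.13. NOV, of the same CCN family, went the other way in U251, with FPKM of 3.34, 9.29, 40.6 and 36.0 and log2 ratios of 1.45 and -0.17. LRP1, a large endocytic receptor that also binds IGFBP3, had FPKM of 2.05, 0.722, 47.7 and 40.9 and log2 ratios of -1.39 and -0.22. It was the only one of 6 genes of IGFBP3 and mannose 6-phosphate handling past 2-fold, in U251, where 8.8% of all genes passed in either direction.

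Downstream of the receptors, none of the 7 adaptor genes and none of the 17 PI3K-AKT and FOXO genes at this level passed 2-fold in either line. Since 8.8% of all genes passed in U251 and 3.34% in U87, counts of 0 among so few genes are near the background. The median log2 ratios in U251 were -0.23 for the adaptors and -0.06 for the PI3K-AKT and FOXO genes, and in U87 -0.09 and -0.03. Among them AKT1, a kinase of this pathway, came closest in U251 at -0.92. None of the 6 such genes of the IGF2BP list passed either, with medians of 0.17 in U251 and -0.05 in U87. AKT1 was singled out after its values were seen.

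**Figure D5:**
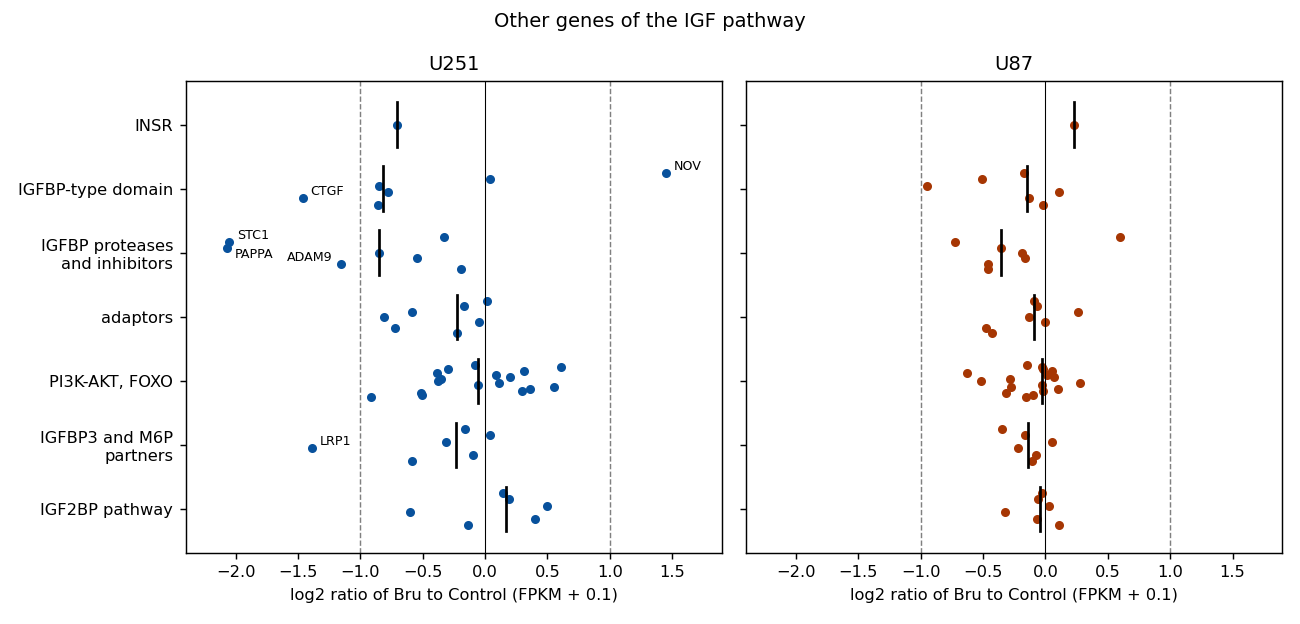
Log2 ratio of Bru to Control in U251 (left) and U87 (right) for the 50 other pathway genes whose FPKM averaged 1 or more, 1 point per gene, by list, with black bars for the median of a list and dashed lines at 2-fold. The points past 2-fold are named: NOV is above and CTGF, STC1, PAPPA, ADAM9 and LRP1 are below in U251, and no gene passes in U87.

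For the genes past 2-fold in U251, the protein-coding genes with the nearest pattern over the 4 libraries were looked up by the Euclidean distance of log2(FPKM + 0.1), centred on the mean of each gene, among 10850 others. Nearest to IGFBP7 were LIMD2 (distance 0.21), PTPRB (0.27) and CTGF (0.31), all with log2 ratios in U251 between -1.77 and -1.46. Nearest to IGFBP2 were EPHA3 (0.79), NEFL (0.89) and SOX2 (1.01), each high in U251 and with 0 reads in U87 Control. They did not share its ratio in U251 alike: EPHA3 had -1.53, SOX2 -0.50 and NEFL -0.16. IGFBP5 had no close neighbour, the nearest being TINAGL1 (1.56), MEST (1.60) and RGS4 (1.72), with log2 ratios in U251 from -2.47 to -2.38. A likeness over 4 libraries describes these libraries only. The genes were picked by these same values, so a log2 ratio close to that of the member follows in part from the choice.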

How the data were processed

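RNA of U251 and U87 cells, Control and Bru, was measured in 4 libraries, 1 per condition. The NEB Next Ultra kit was used to build the libraries, which were read as paired ends on an Illumina platform, and the submitters' processing notes name HISAT2 2.0.5, StringTie 1.3.3b, featureCounts 1.5.0-p3, DESeq2 1.16.1 and the build hg18. The coordinates and lengths of all 58735 genes were however those of GENCODE 29 on GRCh38, which is the build used here. The authors deposited FPKM per gene. Strand-specific counting is not given in the sources used here.

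FPKM times gene length was a whole multiple of 1 step for 100% of values above 0 (tolerance 0.01 reads), which gave the reads per gene and the library size that the FPKM assume, 0.978 to 1.04 times the total of reads. Depth was 17083896 to 21453561 reads. Log2 ratios used FPKM + 0.1, which understates the change of low genes, for the 12949 genes whose FPKM averaged 1 or more, and an absolute log2 ratio above 1 was counted. Intervals are exact 95% Clopper-Pearson intervals of a gene's reads, or exact conditional intervals of the odds ratio for the difference between lines. They cover counting error only. A count test across replicates had no replicates to use. No fold was given where both libraries had 3 reads or fewer. Python 3.11.15, scipy 1.17.1 and pandas 2.3.3 were used. The scripts were tested on simulated data.

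The genes and lists were chosen with earlier results of these data known. All 10 genes were named. Of the lists, the ligands, INSR, IGFBP1, IGF2BP1 and each gene past 2-fold in either line were named, besides the 3 nearest patterns and genes that overlap a member. Alternatives were a pseudocount of 1 or 0.01, median log2 ratio set to 0, TPM, library size from total reads, no filter, a minimum mean FPKM of 5, and protein-coding genes only.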

Additional observations from a re-analysis of the deposited data

Results flagged for a closer look

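The ratio of Bru to Control had opposite signs in the lines for 3 of the genes named by rule (the 10 genes and the pathway genes singled out), each with counting intervals that leave out 0 in both lines. IGF2R had -0.16 on the log2 scale for U251 and 0.17 for U87. INSR had -0.71 in U251 and 0.23 in U87. NOV had 1.45 in U251 and -0.17 in U87. Among the 50 listed pathway genes at an average FPKM of 1 or more, 6 others met the same condition (CYR61, ELAVL1, FOXO4, HMGA1, IRS2 and STC2). The share of all genes that meet it was not computed, so these counts are not read as particular to the pathway. With 1 library per condition, these differences were not tested across replicates.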

How the results depend on the processing

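Of 308 values of the 10 genes under 8 alternatives (IGFBP3, IGFBP4 and IGF2BP3 drop out at a minimum mean FPKM of 5), 303 kept their sign and 304 their side of the 2-fold cutoff. No filter, a minimum mean FPKM of 5 and protein-coding genes only change which genes are kept. They cannot alter a ratio of the 10 genes, so their values kept sign and side by design. The count of 3 genes past 2-fold in U251 was the same under each alternative. In U87 it went from 0 to 2 with a pseudocount of 0.01, for IGFBP2 and IGFBP5 with 0 to 8 reads, where a ratio depends on the pseudocount. Signs turned for IGFBP6 in U251, for IGF2BP2 between the Control lines (-0.05 with TPM) and for the line difference of IGF2BP2 and IGFBP2, and IGFBP4 between the Control lines came to -0.90 and the line difference of IGFBP2 to 1.22 with a pseudocount of 1. Over all genes, 1140 were past 2-fold in U251, against 616 with a pseudocount of 1, 4963 with no filter, 473 at a minimum mean FPKM of 5 and 700 with protein-coding genes only. In U87, 432 were past 2-fold, against 190, 4335, 83 and 96 in the same order. No paired analysis was possible because each condition has 1 library, and for the same reason no library could be left out. Depth limits IGFBP2 and IGFBP5 in U87.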
